A study of Homo sapiens with 27 samples.

Results

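The integrated stress response and the unfolded protein response were examined through 10 genes, chosen by name: ATF4, ATF3, DDIT3, TRIB3, DDIT4, SESN2, CHAC1, ASNS, XBP1 and HSPA5. All 10 were found in each of the 4 count tables, out of 20268 genes listed in any of them. PAC-seq (poly(A)-ClickSeq), a sequencing method that counts transcripts by their polyadenylated 3′ ends, gave 27 libraries from the prostate cancer lines LNCaP, LNCaP95 and 22Rv1. LNCaP is hormone sensitive, whereas LNCaP95, a derivative of LNCaP, and 22Rv1 are hormone insensitive. Cells of each line were infected with lentivirus for a control shRNA, CTRL sh, or for 1 of 2 shRNAs that target CPSF1, named CPSF1 sh1 and CPSF1 sh2, and all groups went through puromycin selection. Cells were then plated at 500000 per well in RPMI 1640 with 10% FBS and grown for 72 h, with 3 libraries in each of the 9 groups. LNCaP95 cells were kept in phenol red-free medium and selected at another puromycin dose than the other lines, so for LNCaP95 line and culture conditions cannot be told apart. Reads were counted by gene in the 3′ UTR, in introns, in coding sequence (CDS) and in the 10 kb beyond the gene end. In bulk libraries such as these, fewer cells using a gene and less RNA per cell cannot be told apart.

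Both responses are well described. In the integrated stress response, kinases that sense amino acid shortage, unfolded protein in the endoplasmic reticulum (ER), double-stranded RNA or haem shortage phosphorylate the translation factor eIF2. General translation then falls while translation of ATF4 mRNA rises, and ATF4 switches on genes for amino acid supply, redox balance and, under lasting stress, cell death. In the unfolded protein response, the ER sensors PERK, IRE1 and ATF6 raise the folding capacity of the ER, with PERK being one of the eIF2 kinases. XBP1 mRNA is spliced by IRE1, and HSPA5 (BiP) is the main ER chaperone. The counts do not distinguish spliced from unspliced XBP1 mRNA, and they do not measure ATF4 protein.

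The libraries held 1725670 to 6549383 reads in the 3′ UTR table and 170330 to 728430 in the 10 kb table. CPSF1, the targeted gene, encodes the largest protein of the complex that recognises the poly(A) signal. Levels are given in CPM, reads scaled to the total of a library's table. In its 3′ UTR CPSF1 had 137.1 to 183.7 CPM in LNCaP controls and 53.0 to 98.4 after knockdown. LNCaP95 had 66.2 to 109.8 CPM in controls and 34.1 to 60.4 after knockdown, and 22Rv1 had 133.7 to 201.9 and 85.02 to 114.3. All 9 prostate luminal markers on the list were detected in each line. Markers of blood, stromal and endothelial cells, 5 of 6 being in the table, summed to 7.02 to 41.2 CPM.

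The promoters of the members were searched for the letter patterns of known response elements, and the matches are shown as description only. Promoter sequences were taken from RefSeq on GRCh38.p14, from 250 bases before to 50 after the start. All 10 members were matched, with 17 promoters between them. The C/EBP-ATF response element, searched as TGATGNAAN on both strands, was found at ATF3, ASNS and CHAC1. Among the 35116 promoters of all genes, 3.61% held it, which is a share per promoter and not per gene. The ER stress element, searched on both strands as CCAAT and CCACG with 9 bases between them, was found at HSPA5 and XBP1, against 0.0769% of the promoters. Capitals mark the match in each 30-base stretch, and in CHAC1 the match is on the opposite strand.
ATF3, chr1:212565206-212565235, plus strand: aaggtcaggaTGATGGAAGgctgtcatatt
ASNS, chr7:97872457-97872486, minus strand: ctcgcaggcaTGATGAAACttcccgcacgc
CHAC1, chr15:40953251-40953280, plus strand: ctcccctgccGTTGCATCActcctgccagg
HSPA5, chr9:125241385-125241414, minus strand: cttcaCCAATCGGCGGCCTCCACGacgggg
XBP1, chr22:28800597-28800626, minus strand: gctggCCAATCGCGGAGGGCCACGaccgta
A match describes the letters only, and no other member held either motif in this window.

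Because PAC-seq counts where transcripts end, the poly(A) signal before each annotated gene end is also shown. AATAAA was found within 50 bases of the end in 6 members and ATTAAA alone in 3, DDIT3, HSPA5 and XBP1. CHAC1 held neither. Over the 19540 genes searched, 59.4% held AATAAA and 72.9% held either. The stretches below, on GRCh37, belong to 6 members, and capitals mark the signal. In these 6 the reads beyond the gene end rose in LNCaP95 after knockdown under every alternative processing that tested them. Such reads of CHAC1 fell in LNCaP95, and it held no signal to show.
TRIB3, chr20:378169-378198, plus strand: ttacctgtgcctAATAAAggagaattatga
DDIT4, chr10:74035761-74035790, plus strand: ttttacttttctAATAAAcatgtttgttaa
ATF4, chr22:39918655-39918684, plus strand: gctgtgtgttccAATAAAttattttgtagg
ATF3, chr1:212794077-212794106, plus strand: acctgtcagaatAATAAAtattggaaccaa
ASNS, chr7:97481443-97481472, minus strand: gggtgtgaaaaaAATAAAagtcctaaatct
DDIT3, chr12:57910378-57910407, minus strand: ctgtccctatctATTAAAgtgactttctat
Between 14 and 25 bases lay between the signal and the annotated end in the 9 members that held one. This distance was 17 bases in TRIB3, 16 in DDIT4, 19 in ATF4 and DDIT3, and 25 in ATF3 and ASNS.

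To describe the resting state of the responses, control libraries of the 3 lines were compared in the 3′ UTR table. LNCaP95 controls had the highest levels of 9 of the 10 genes, and HSPA5 was highest in 22Rv1. Against LNCaP, 8 of 10 members were called higher in LNCaP95 and 0 lower by the edgeR quasi-likelihood test (adjusted p under 0.05), where 19.1% of all genes tested were called higher and 20.2% lower. The 3 LNCaP95 libraries lay above the 3 LNCaP libraries for 9 of 10 members, against 26.4% of all genes. The calls share control libraries between the pairs of lines.

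Among the transcription factors, DDIT3 and ATF3 differed widely between the lines. DDIT3 (CHOP), a pro-apoptotic factor, had 590.2, 556.5 and 515.1 CPM in LNCaP95, 100.9, 86.6 and 86.5 in 22Rv1 and 46.8, 50.6 and 48.3 in LNCaP. LNCaP95 stood above both other lines with no overlap, and 22Rv1 stood above LNCaP. The difference of LNCaP95 from LNCaP was 3.51 on the log2 scale (SE 0.152, edgeR adjusted p = 6.63e-11), and that of 22Rv1 from LNCaP was 0.91 (SE 0.146, edgeR adjusted p = 7.24e-05). ATF3, a stress-induced factor that ATF4 activates, had 53.4, 76.9 and 49.4 CPM in LNCaP95, 8.65, 9.43 and 6.90 in LNCaP and 4.53, 10.6 and 10.3 in 22Rv1. It was higher in LNCaP95 than in LNCaP by 2.83 (SE 0.264, edgeR adjusted p = 3.41e-07), while LNCaP and 22Rv1 overlapped. ATF4 itself, which is controlled largely at translation, stood at 952.7 to 1182 CPM in LNCaP95, 756.5 to 858.4 in LNCaP and 533.0 to 810.1 in 22Rv1. Its log2 difference between LNCaP95 and LNCaP was 0.35 (SE 0.152) and did not pass (edgeR adjusted p = 0.0796), but ATF4 was lower in 22Rv1 than in LNCaP95 by 0.64 (SE 0.153, edgeR adjusted p = 0.00206).

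Targets that restrain growth or feed back on the response also stood highest in LNCaP95 controls. TRIB3, a pseudokinase that dampens ATF4 and DDIT3, stood at 164.9 to 191.1 CPM in LNCaP95, 71.5 to 77.2 in LNCaP and 43.4 to 72.4 in 22Rv1. SESN2, an inhibitor of mTORC1 through leucine sensing, stood at 105.2 to 129.0 CPM in LNCaP95, 34.59 to 34.99 in LNCaP and 14.5 to 24.6 in 22Rv1. DDIT4 (REDD1), another inhibitor of mTORC1 that also responds to hypoxia and glucocorticoids, stood at 204.8 to 220.1 CPM, 122.8 to 143.6 and 14.9 to 28.6 in the same order. The 3 lines did not overlap in SESN2 or DDIT4, with the order LNCaP95, LNCaP, 22Rv1. DDIT4 was 2.50 lower in 22Rv1 than in LNCaP on the log2 scale (SE 0.194, edgeR adjusted p = 2.04e-08). CHAC1, which degrades glutathione, had the same order, with 24.4 to 30.6 CPM in LNCaP95, 9.71 to 14.7 in LNCaP and 3.24 to 6.94 in 22Rv1.

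Among the supply and folding genes, ASNS, which makes asparagine, was called 0.41 higher in LNCaP95 than in LNCaP (SE 0.155, edgeR adjusted p = 0.0446), and the call did not survive leaving out LNCaP replicate 1, 2 or 3, LNCaP95 replicate 1 or 3 or 22Rv1 replicate 3 (edgeR adjusted p of 0.0518 to 0.15). ASNS in 22Rv1 and LNCaP overlapped, with a log2 difference of -0.0027 (SE 0.156). XBP1 was higher in LNCaP95 than in LNCaP by 0.71 (SE 0.176, edgeR adjusted p = 0.00445), and LNCaP and 22Rv1 overlapped. HSPA5 took another order, with 871.1 to 969.3 CPM in 22Rv1, 499.4 to 690.5 in LNCaP95 and 511.1 to 544.5 in LNCaP. LNCaP and LNCaP95 overlapped in it, whereas 22Rv1 was higher than LNCaP by 0.80 (SE 0.139, edgeR adjusted p = 1.67e-04) and than LNCaP95 by 0.60 (SE 0.139, edgeR adjusted p = 0.00157). Between 22Rv1 and LNCaP, 2 members were called higher and 3 lower, where 23.9% and 23.2% of all genes were, 47.2% in all. Between 22Rv1 and LNCaP95, 1 was called higher and 9 lower, where 28.1% and 26.5% were. The ASNS call among the 9 (-0.41) was lost without LNCaP95 replicate 1 or 3 or 22Rv1 replicate 2 or 3 (edgeR adjusted p of 0.0868 to 0.169).

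**Figure D1:**
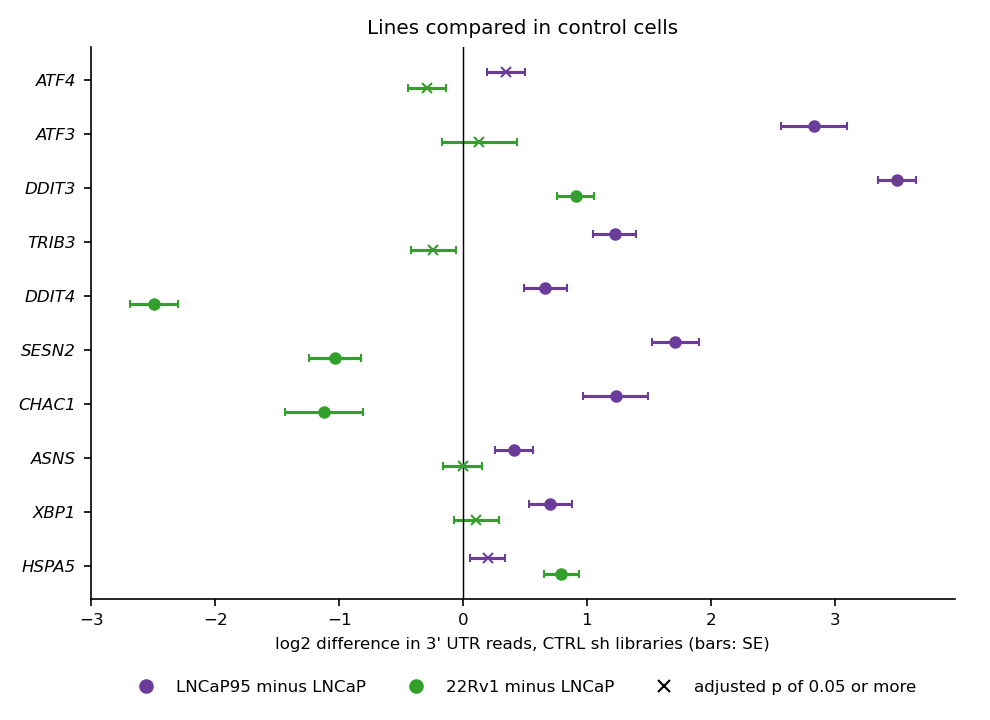
Log2 difference in 3′ UTR reads between control libraries (3 per line), LNCaP95 minus LNCaP in purple and 22Rv1 minus LNCaP in green, with bars for the SE and crosses where the edgeR adjusted p was 0.05 or more. DDIT3 sits farthest right at 3.51 for LNCaP95, and DDIT4 sits farthest left at -2.50 for 22Rv1.

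Knockdown of CPSF1 was then compared with control within each line, with 6 knockdown against 3 control libraries and each table scaled to its own total. In LNCaP95, 9 of the 10 members fell in the 3′ UTR table, 0 rose, and the tenth, XBP1, had a change of -0.34 on the log2 scale (SE 0.153, edgeR adjusted p = 0.0983). Of all genes tested there, 15.2% fell and 15.2% rose. For 8 members all 6 knockdown libraries lay below all 3 controls, which was so for 14.3% of all genes. In LNCaP, 3 members fell and 2 rose, where 10.1% and 8.24% of all genes did. In 22Rv1, 1 member, CHAC1, fell and 0 rose, where 0.791% and 0.678% of all genes did, 1.47% in all. CHAC1 passed the filter of a mean above 2 CPM in that line through the controls alone (mean of 4.90 CPM, against 1.59 after knockdown), so its inclusion favours a fall. Over the 10 genes the median log2 fold change was -1.09 in LNCaP95, beside 0.01 over all genes tested. The medians were -0.15 beside 0.02 in LNCaP and -0.25 beside -0.01 in 22Rv1. The summed level of the luminal markers was also lower after knockdown in LNCaP, at 4198 to 4766 CPM against 6366 to 6509 in controls, and in LNCaP95, at 5313 to 6572 against 8896 to 9726. In 22Rv1 it was 2960 to 3483 CPM against 2637 to 3092, and the part of these markers in the results was not tested.

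ATF4 fell in LNCaP and LNCaP95. In LNCaP it had 834.3, 756.5 and 858.4 CPM with CTRL sh, 410.1, 381.5 and 471.8 with CPSF1 sh1 and 606.1, 510.1 and 607.0 with CPSF1 sh2. In LNCaP95 it had 1182, 995.7 and 952.7 CPM with CTRL sh, 581.8, 623.6 and 591.7 with CPSF1 sh1 and 678.7, 501.3 and 531.0 with CPSF1 sh2. No knockdown library reached a control in either line, and the log2 fold changes were -0.70 (SE 0.141, edgeR adjusted p = 0.00207) and -0.83 (SE 0.128, edgeR adjusted p = 9.78e-05). In 22Rv1 the libraries overlapped, with 533.0 to 810.1 CPM in controls and 382.7 to 550.7 after knockdown, and the change of -0.53 did not pass (edgeR adjusted p = 0.102).

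DDIT3 and ATF3, which stood high in LNCaP95 controls, fell in that line. DDIT3 went from 590.2, 556.5 and 515.1 CPM to 214.9, 151.5 and 214.9 with CPSF1 sh1 and 176.2, 136.6 and 139.8 with CPSF1 sh2, a log2 change of -1.68 (SE 0.151, edgeR adjusted p = 3.9e-07). The knockdown libraries of LNCaP95 still lay above every LNCaP and 22Rv1 library. In LNCaP, DDIT3 had 46.8 to 50.6 CPM in controls and 44.8 to 61.6 after knockdown, with a log2 fold change of 0.10 that did not pass. ATF3 went in LNCaP95 from 53.4, 76.9 and 49.4 CPM to 30.5, 21.1 and 25.2 with CPSF1 sh1 and 11.2, 17.0 and 17.9 with CPSF1 sh2, a change of -1.52 (SE 0.217, edgeR adjusted p = 4.95e-05). In LNCaP the same gene rose, from 8.65, 9.43 and 6.90 CPM to 12.1, 22.9 and 15.4 with CPSF1 sh1 and 11.9, 13.3 and 15.7 with CPSF1 sh2. Its log2 fold change there was 0.88 (SE 0.258, edgeR adjusted p = 0.0229), all 6 knockdown libraries lay above the controls, and the control libraries held only 27 to 43 reads. The LNCaP call was lost without CTRL sh replicate 1 (edgeR adjusted p = 0.0722), CTRL sh replicate 3 (0.122) or CPSF1 sh1 replicate 2 (0.0516).

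Among the growth-restraining targets, TRIB3, DDIT4 and SESN2 fell in LNCaP95. TRIB3 went from 169.9, 191.1 and 164.9 CPM to 60.2 to 104.3 after knockdown, a change of -1.23 (SE 0.152, edgeR adjusted p = 1.25e-05). DDIT4 went from 207.5, 204.8 and 220.1 CPM to 64.2 to 125.7, a change of -1.34 (SE 0.179, edgeR adjusted p = 2.51e-05). SESN2 went from 110.0, 105.2 and 129.0 CPM to 61.1 to 90.3, a change of -0.69 (SE 0.14, edgeR adjusted p = 0.00122). In all 3 genes the groups were separate. In LNCaP, DDIT4 fell as well, from 130.6, 143.6 and 122.8 CPM to 61.8 to 105.0 (log2 fold change -0.71, SE 0.157, edgeR adjusted p = 0.00422), whereas SESN2 rose, from 34.59, 34.85 and 34.99 CPM to 40.6 to 57.0 (0.50, SE 0.156, edgeR adjusted p = 0.0311). The SESN2 call in LNCaP was lost without CTRL sh replicate 1 (edgeR adjusted p = 0.103), 2 (0.0899) or 3 (0.105) or CPSF1 sh1 replicate 3 (0.0604). TRIB3 had 71.5 to 77.2 CPM in LNCaP controls and 52.5 to 72.4 after knockdown, and its change of -0.26 did not pass. In 22Rv1 none of the 3 passed with both shRNAs pooled.

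CHAC1 was the member with the most negative log2 fold change in each line. In LNCaP95 it went from 27.2, 24.4 and 30.6 CPM to 4.05, 5.27 and 11.3 with CPSF1 sh1 and 8.15, 4.77 and 4.81 with CPSF1 sh2 (-2.10, SE 0.261, edgeR adjusted p = 1.25e-05). In 22Rv1 it went from 3.24, 4.53 and 6.94 CPM to 2.35, 1.75 and 1.93 with CPSF1 sh1 and 1.32, 1.24 and 0.933 with CPSF1 sh2 (-1.73, SE 0.382, edgeR adjusted p = 0.0323). In LNCaP it had 9.71 to 14.7 CPM in controls and 2.73 to 10.5 after knockdown (-1.07, SE 0.361, edgeR adjusted p = 0.0444), with 1 of the CPSF1 sh2 libraries within the control range. These are low counts, and both weaker calls hung on single libraries. The 22Rv1 call was lost without CTRL sh replicate 2 or 3, CPSF1 sh1 replicate 2 or 3 or any CPSF1 sh2 replicate, with edgeR adjusted p of 0.0543 to 0.267. The LNCaP call was lost without any CTRL sh or CPSF1 sh1 replicate or CPSF1 sh2 replicate 3, with 0.0714 to 0.225.

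Among the supply and folding genes, ASNS fell in LNCaP95 from 729.2, 648.1 and 747.1 CPM to 372.6, 296.5 and 508.5 with CPSF1 sh1 and 310.0, 370.4 and 344.0 with CPSF1 sh2 (-0.94, SE 0.149, edgeR adjusted p = 1.27e-04). In LNCaP its change of -0.47 (SE 0.173) did not pass (edgeR adjusted p = 0.0674), with 499.6 to 550.2 CPM in controls and 270.8 to 519.5 after knockdown. In 22Rv1 its change was -0.48 (SE 0.137) and did not pass either (edgeR adjusted p = 0.0995). HSPA5 fell in LNCaP95 from 690.5, 499.4 and 644.0 CPM to 349.7 to 549.4 (-0.52, SE 0.152, edgeR adjusted p = 0.0143), with overlapping groups. That call was lost without CTRL sh replicate 1 (edgeR adjusted p = 0.103) or 3 (0.0667). XBP1 overlapped between control and knockdown in all 3 lines, and its log2 fold change was -0.03 in LNCaP and 0.12 in 22Rv1.

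**Figure D2:**
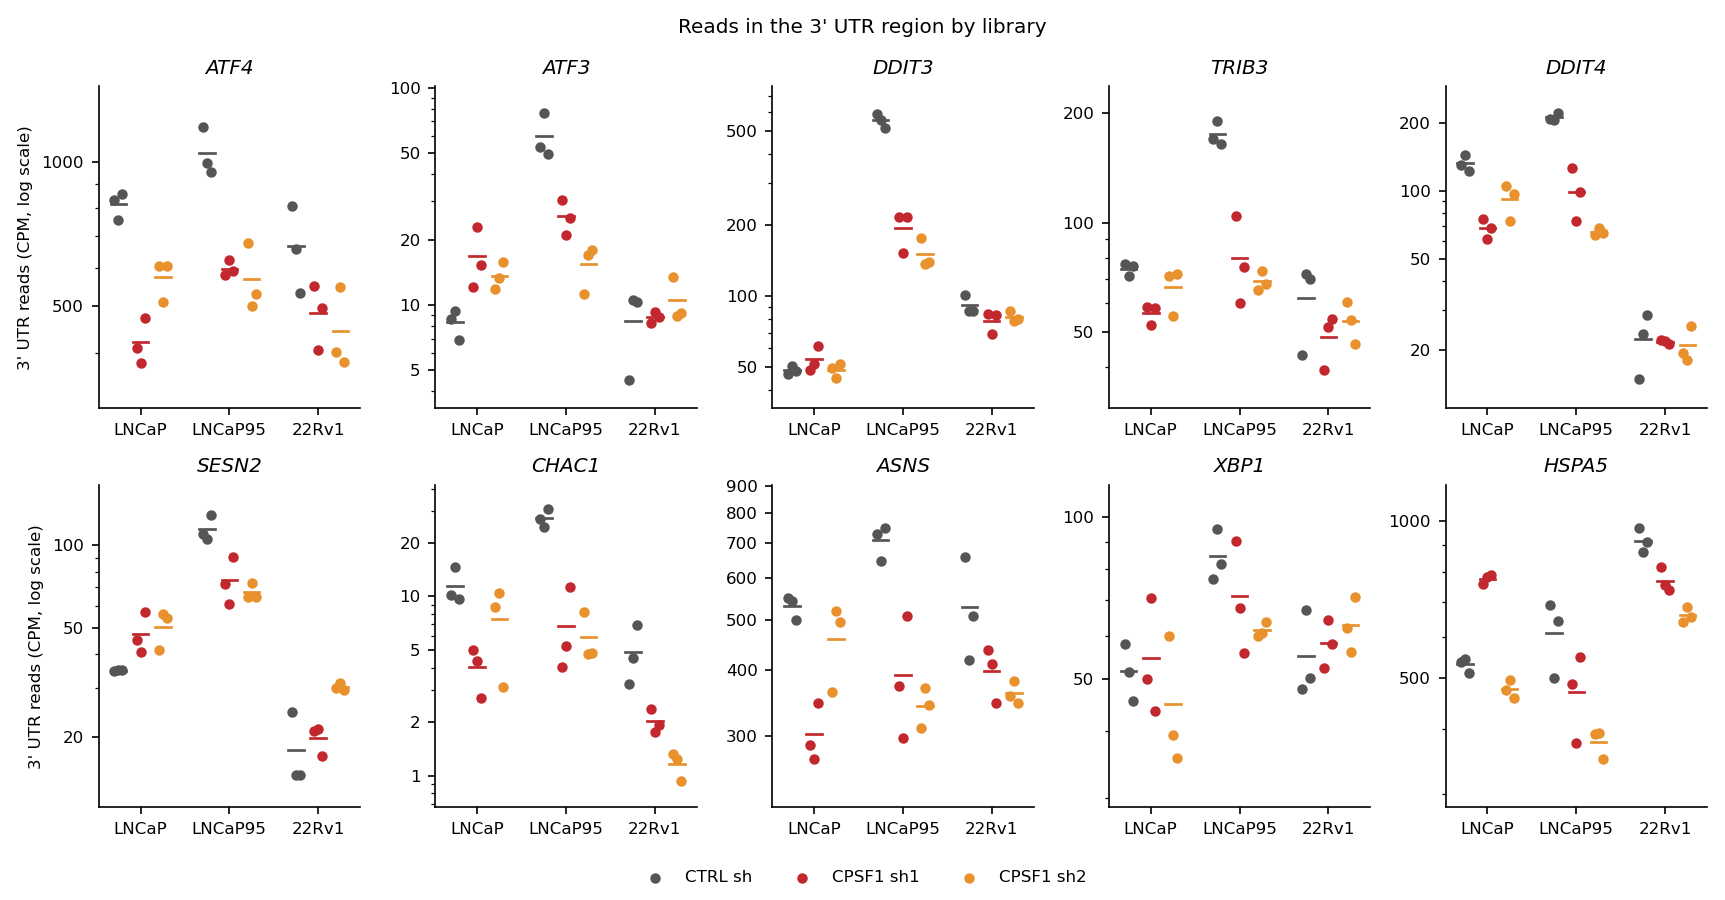
CPM in the 3′ UTR of each gene (log axis, 1 point per library, horizontal bars for group means), by line and shRNA. The knockdown points lie below the grey control points in LNCaP95 for all genes except XBP1 and HSPA5, where they overlap, and DDIT3 in LNCaP95 controls (515.1 to 590.2 CPM) stands far above the other lines.

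Whether the lines responded differently was tested directly over all 27 libraries. Between LNCaP95 and LNCaP, the 3′ UTR effect was more negative in LNCaP95 for 6 of 10 members, DDIT3, ATF3, SESN2, TRIB3, HSPA5 and DDIT4, where 10.3% of all genes differed. The DDIT4 difference of -0.64 passed narrowly (SE 0.212, edgeR adjusted p = 0.049). The largest of these differences were -2.43 for ATF3 (SE 0.32, edgeR adjusted p = 5.38e-06) and -1.78 for DDIT3 (SE 0.179, edgeR adjusted p = 4.54e-08). Between 22Rv1 and LNCaP95, 5 of 10 differed, DDIT3, ATF3, DDIT4, SESN2 and TRIB3, against 11.7% of all genes. Between 22Rv1 and LNCaP only HSPA5 differed, by -0.56 (SE 0.156, edgeR adjusted p = 0.0282), against 5.71% of all genes. The effects on ATF4, ASNS, CHAC1 and XBP1 in the 3′ UTR were not shown to differ between any lines.

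With CPSF1 sh1 or CPSF1 sh2 alone, the same 3 controls served for comparison. In LNCaP95, CPSF1 sh1 lowered 8 of 10 members and CPSF1 sh2 lowered 9, where 10.4% and 13.1% of all genes fell. In LNCaP, CPSF1 sh1 lowered 4 (8.88% of all genes) and raised 2 (7.22%), ATF3 and HSPA5, and CPSF1 sh2 lowered 2 (7.0%), ATF4 and DDIT4, and raised 0 (5.53%). In 22Rv1, CPSF1 sh1 changed 0 members, with 4 at an unadjusted p under 0.05 (CHAC1, ATF4, ASNS and HSPA5) and 0.443% of all genes called. CPSF1 sh2 raised SESN2 in that line by 0.84 (SE 0.211, edgeR adjusted p = 0.0419; 1.42% of all genes rose) and lowered CHAC1 and HSPA5 (2.06% of all genes fell). HSPA5 in LNCaP set the shRNAs apart. It had 537.6, 544.5 and 511.1 CPM with CTRL sh, 756.1, 780.8 and 786.7 with CPSF1 sh1 and 474.0, 495.2 and 458.9 with CPSF1 sh2. All CPSF1 sh1 libraries lay above and all CPSF1 sh2 libraries below the controls, and the direct difference between the shRNAs was -0.71 (SE 0.118, edgeR adjusted p = 0.0283), where 0.0363% of all genes differed. The CDS reads of HSPA5 differed likewise, by -0.98 (SE 0.16, edgeR adjusted p = 0.00383; 0.0612% of all genes).

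Reads beyond the gene ends moved the other way for most members in LNCaP95. In the 10 kb table, 7 of 10 members rose in LNCaP95 and 1 fell, 4 rose and 0 fell in LNCaP, and 2 rose and 0 fell in 22Rv1, against 17.6% and 10.1%, 9.52% and 5.2%, and 7.26% and 2.73% of all genes. All 10 members passed the filter in each line, but 3 of them did so through the knockdown libraries alone, ATF3 in LNCaP, ATF4 in LNCaP and LNCaP95 and CHAC1 in 22Rv1, so their inclusion there favours a rise. All 6 knockdown libraries exceeded all 3 controls for 8 members in LNCaP95, 2 in LNCaP and 5 in 22Rv1, where 18.3%, 10.1% and 11.9% of all genes did. These changes are relative to all 10 kb regions. When library sizes were instead summed over the 4 tables, the median over all 10 kb regions moved from 0.22 to 1.11 on the log2 scale in LNCaP95, from 0.13 to 0.62 in LNCaP and from 0.19 to 0.73 in 22Rv1. With those sizes 8, 5 and 5 members rose and 0 fell, and the shares of all genes given above do not apply to these counts.

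TRIB3 gave the most reads after knockdown in LNCaP and LNCaP95. In LNCaP95 its 10 kb region held 19, 10 and 11 reads with CTRL sh, 83, 166 and 97 with CPSF1 sh1 and 97, 122 and 126 with CPSF1 sh2. In LNCaP it held 9, 5 and 4 reads with CTRL sh, 21, 20 and 22 with CPSF1 sh1 and 55, 25 and 67 with CPSF1 sh2. The groups were separate in both lines, and the log2 fold changes were 2.25 (SE 0.332, edgeR adjusted p = 4.96e-08) and 2.09 (SE 0.425, edgeR adjusted p = 5.68e-05). As a share of all TRIB3 reads over the 4 tables, the 10 kb region held 1.42% ± 0.476 in LNCaP95 controls (SD, n = 3) and 24.9% ± 8.89 after knockdown (n = 6), and 1.92% ± 1.04 and 11.97% ± 4.803 in LNCaP. In 22Rv1 the share was 2.05% ± 1.38 and 7.10% ± 3.88, and the change of 1.12 in 10 kb reads did not pass (edgeR adjusted p = 0.166). The TRIB3 region overlaps an annotated transcript of RBCK1 on the same strand over 189 bases, so reads there could belong to either gene.

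DDIT4, which has no other coding gene on its strand in the region, held 10, 7 and 9 reads in LNCaP95 controls, 45, 62 and 62 with CPSF1 sh1 and 53, 78 and 45 with CPSF1 sh2. The log2 fold change was 1.86 (SE 0.377, edgeR adjusted p = 5.34e-05) and the share of DDIT4 reads went from 0.811% ± 0.0910 to 14.4% ± 5.40. In LNCaP the controls held 2, 0 and 0 reads, CPSF1 sh1 3, 5 and 1 and CPSF1 sh2 28, 15 and 28, so that the rise came mostly with CPSF1 sh2. The pooled ratio was 15.2 (95% counting interval 4.06 to 127.3), the shRNAs differed by 2.82 (SE 0.66, edgeR adjusted p = 0.0282; 0.119% of all regions differed), and with DESeq2 the rise missed the threshold (adjusted p = 0.0568).

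Among the transcription factors, ATF4 and ATF3 gave reads beyond their ends mainly after knockdown, while DDIT3 also held such reads in controls. ATF4 held 0 reads in all 3 LNCaP95 controls, 17, 33 and 33 with CPSF1 sh1 and 50, 62 and 49 with CPSF1 sh2. Set against a floor of 3 reads over the controls, this was 23.4-fold higher. The 95% counting interval, which uses no floor, had a lower end of 18.9. In LNCaP, ATF4 held 0, 1 and 0 reads in controls and 3 to 21 after knockdown, a ratio of 22.0 (95% counting interval 3.79 to 882.5). Knockdown libraries exceeded controls throughout in both lines, although these reads made up only 1.54% ± 0.736 of ATF4 reads in LNCaP95 and 0.431% ± 0.2 in LNCaP after knockdown. ATF3 held 0, 2 and 4 reads in LNCaP95 controls and 19 to 34 after knockdown (2.86, SE 0.599, edgeR adjusted p = 8.8e-05), and its share went from 0.501% ± 0.537 to 14.4% ± 4.597. In LNCaP, ATF3 held 0 reads in the controls and 7, 6, 0, 9, 4 and 3 after knockdown. This was 3.66-fold higher against the same floor of 3 reads, and the 95% counting interval had a lower end of 2.79. The ATF3 call in LNCaP was lost without CTRL sh replicate 2 (edgeR adjusted p = 0.055). DDIT3 rose in LNCaP95 from 7, 7 and 16 reads to 49 to 83 (1.83, SE 0.367, edgeR adjusted p = 4.36e-05) and in 22Rv1 from 1, 2 and 2 reads to 8 to 39 (2.39, SE 0.631, edgeR adjusted p = 0.00504). The 22Rv1 call was lost without CTRL sh replicate 3 (edgeR adjusted p = 0.0635). In LNCaP the DDIT3 change of 0.97 did not pass (edgeR adjusted p = 0.122). Nor did the changes of ATF4 (0.216) and ATF3 (0.379) in 22Rv1. The DDIT3 region lies within MARS1 on the opposite strand, and counting followed the strand. The ATF3 region is in 2 pieces, of 3371 and 3999 bases, and the study removed same-strand exons and 3′ UTRs from such regions. ATF3 reads in the piece beyond the gap could thus belong to another gene.

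ASNS rose from 2, 7 and 1 reads to 20 to 44 in LNCaP95 (2.27, SE 0.526, edgeR adjusted p = 3.97e-04), and XBP1 from 13, 16 and 4 reads to 31 to 56 (1.02, SE 0.392, edgeR adjusted p = 0.0397). The GENCODE annotation ends ASNS 441 bases farther on, inside its 10 kb region. A non-coding transcript on the same strand covers 131 bases of that region. Some ASNS reads there could thus lie within the annotated gene or belong to that transcript. The XBP1 call was lost without CTRL sh replicate 1 or 3, CPSF1 sh1 replicate 1 or CPSF1 sh2 replicate 2 or 3, its change being 0.60 without CTRL sh replicate 3 (edgeR adjusted p = 0.3), and with relative log expression scaling (0.0558) or DESeq2 (0.0592). SESN2 rose in 22Rv1 from 1, 0 and 1 reads to 5 to 17, a ratio of 7.07 (95% counting interval 1.89 to 59.5), a call lost without CTRL sh replicate 2 or 3, CPSF1 sh1 replicate 3 or any CPSF1 sh2 replicate (edgeR adjusted p of 0.0529 to 0.173) and with DESeq2 (adjusted p = 0.0928). CHAC1 was the exception in LNCaP95, where its 10 kb reads fell from 29, 11 and 44 to 7 to 21 (-1.81, SE 0.379, edgeR adjusted p = 8.7e-05), along with its 3′ UTR reads. With library sizes summed over the tables that fall was -0.90 and did not pass (edgeR adjusted p = 0.0912). The share of CHAC1 reads beyond the gene end was nonetheless 16.01% ± 7.09 in LNCaP95 controls and 34.2% ± 10.0 after knockdown. Such shares are not scaled to the other 10 kb regions, whose median log2 change in LNCaP95 was 1.11 with summed library sizes. For CHAC1 in LNCaP95 the ratio of the region to the 3′ UTR moved by 0.42 (SE 0.507), beside a median of 0.53 over all genes. Its test missed the threshold (edgeR adjusted p = 0.566). In 22Rv1 the share of CHAC1 was 0.980% ± 1.70 in controls and 34.7% ± 6.33 after knockdown. The region held 1 read in all controls of that line together and 25 after knockdown. HSPA5 passed in no line, and its share stayed at or under 0.994% in every library.

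**Figure D3:**
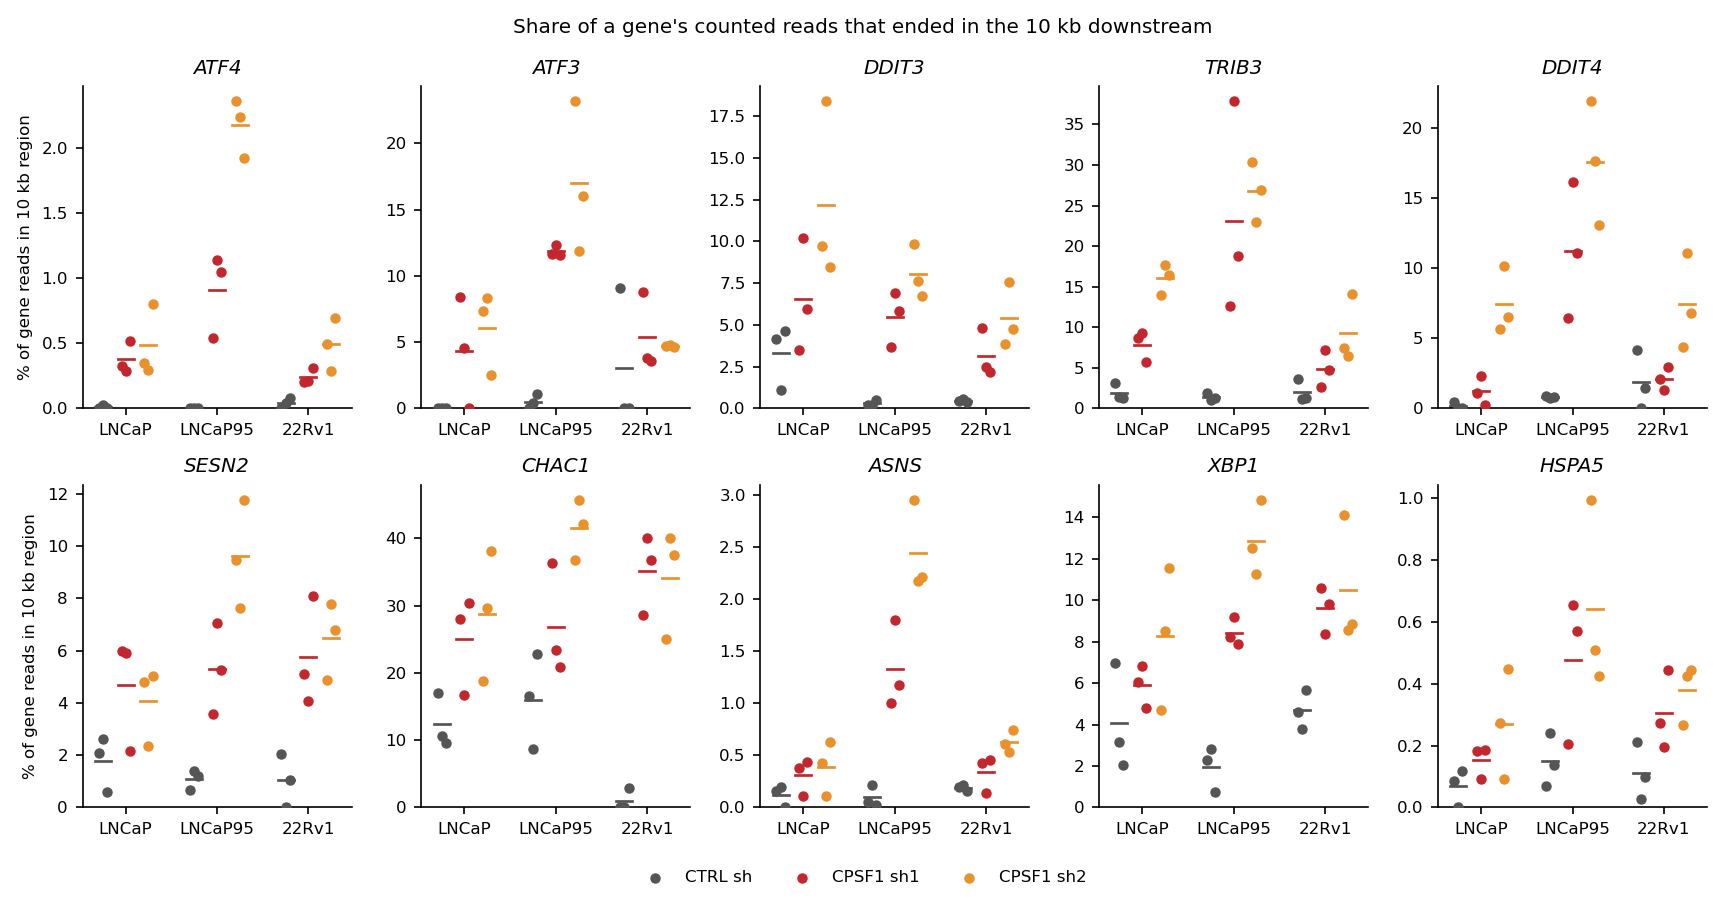
Share of each gene's reads over the 4 tables that fell in the 10 kb beyond its end (linear axes from 0, 1 point per library, bars for group means). In LNCaP95 the share of TRIB3 was 1.05% to 1.96% in controls and 12.7% to 37.9% after knockdown, and that of DDIT4 0.711% to 0.889% and 6.46% to 21.9%.

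The balance between the 10 kb region and the 3′ UTR was tested within each gene, in a model with a term for each library. In LNCaP95 the ratio rose for 8 of 10 members, where it rose for 21.2% of all genes. The log2 changes in the ratio were 4.46 for ATF3, 3.54 for DDIT3, 3.49 for TRIB3, 3.26 for ASNS, 3.25 for DDIT4, 1.68 for SESN2 and 1.41 for XBP1, with SEs of 0.385 to 0.614 and edgeR adjusted p of 2.53e-08 to 0.0122. ATF4 was the eighth, with no reads in the control regions. Its 10 kb region in LNCaP and LNCaP95 and that of CHAC1 in 22Rv1 passed the filter through the knockdown libraries alone, and CHAC1 in 22Rv1 passed it in the 3′ UTR through the controls alone, so the inclusion of these genes favours a rise of the ratio. In LNCaP the ratio rose for ATF4, DDIT4 and TRIB3 (8.39% of all genes), with 2.31 for TRIB3 (SE 0.485, edgeR adjusted p = 0.00145), and in 22Rv1 for DDIT3, by 2.55 (SE 0.627, edgeR adjusted p = 0.00985), and CHAC1 (6.65% of all genes). In 22Rv1 the members numbered 7 rather than 2 with library sizes summed over the tables.

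Counted over all 4 tables together, the genes still fell in LNCaP95. All 10 members fell there, by log2 fold changes of -0.46 for XBP1 to -1.89 for CHAC1, where 16.8% of all genes fell. DDIT3 changed by -1.65 (SE 0.152, edgeR adjusted p = 2.39e-07) and TRIB3 by -0.91 (SE 0.127, edgeR adjusted p = 2.34e-05). In LNCaP, ATF3 (0.68) and SESN2 (0.59) rose and ATF4 (-0.61), DDIT4 (-0.57) and ASNS (-0.40) fell, where 14.0% of all genes rose and 13.5% fell. In 22Rv1, ATF4 (-0.62), ASNS (-0.57) and HSPA5 (-0.48) fell, where 2.99% did and 4.58% rose, 7.57% in all, while CHAC1 had too few reads to be tested. Where the CDS and 3′ UTR regions of ASNS, XBP1 and ATF3 overlap, a read could enter these sums and the shares above more than once.

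**Figure D4:**
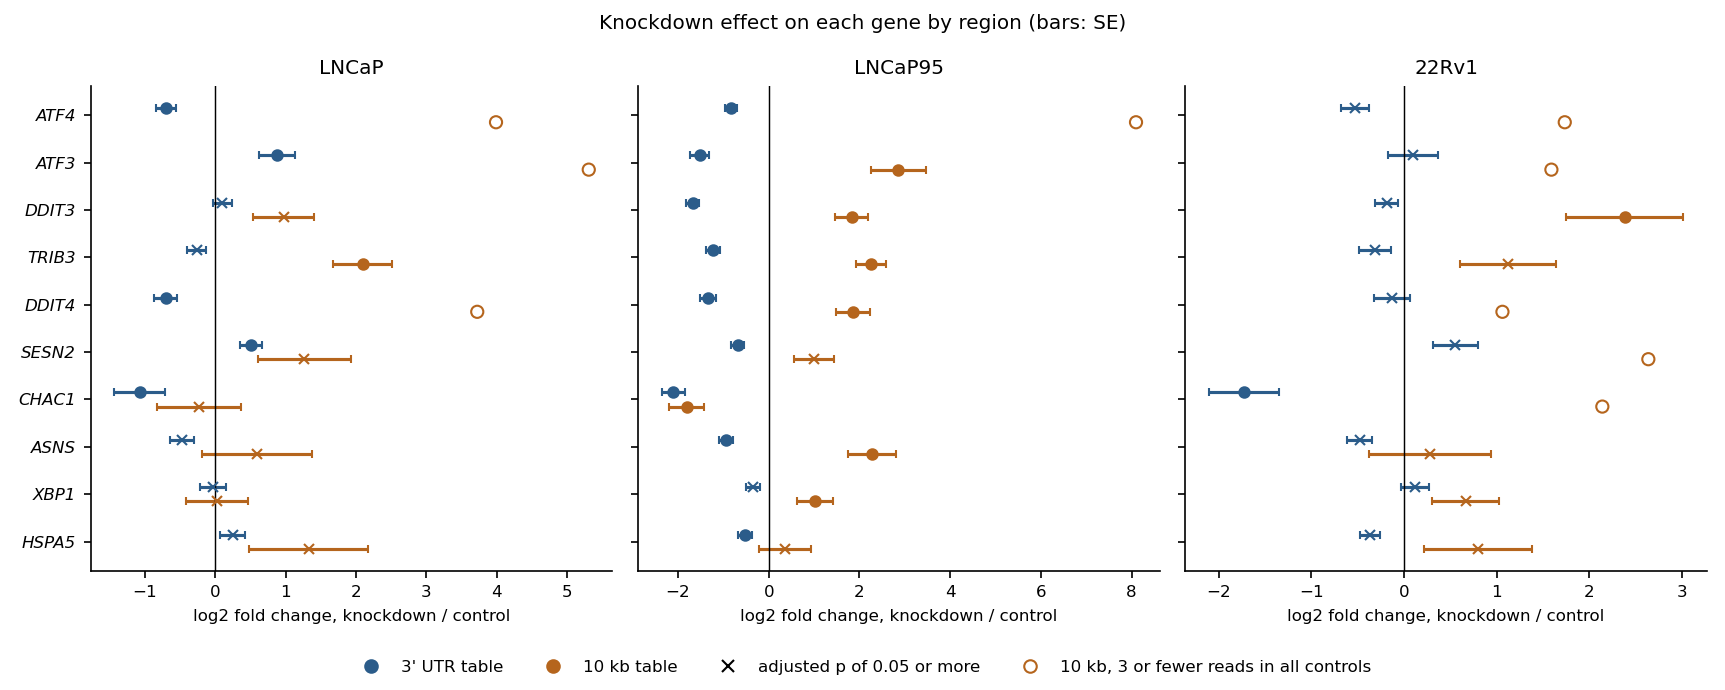
Log2 fold change of knockdown over control for each gene in the 3′ UTR table (blue) and the 10 kb table (brown), with bars for the SE and crosses where the edgeR adjusted p was 0.05 or more. Hollow points have 3 or fewer reads in all controls, so their position is no measure of size, and in LNCaP95 TRIB3 sits at -1.23 in blue and 2.25 in brown.

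Fewer members could be tested inside the genes, where 6 passed the filter in introns (ATF3, DDIT3, TRIB3, SESN2, ASNS and XBP1). Of these, 5 were higher in LNCaP95 than in LNCaP controls and 0 lower, where 12.0% and 12.2% of all genes were. The XBP1 call among them (0.72) was lost with summed library sizes (edgeR adjusted p = 0.152). It was also lost without LNCaP CTRL sh replicate 2 or 3 or LNCaP95 CTRL sh replicate 3 (0.0595 to 0.0894). Intron reads of ASNS stood at 52.0 to 64.5 CPM in LNCaP95 and 5.79 to 9.42 in LNCaP, a log2 difference of 2.79 (SE 0.301, edgeR adjusted p = 5.15e-09), and those of SESN2 at 69.7 to 81.8 and 12.7 to 14.3 CPM, a difference of 2.47 (SE 0.238, edgeR adjusted p = 4.57e-10). After knockdown, 4 fell in LNCaP95, ASNS by -2.07, DDIT3 by -1.56, SESN2 by -1.27 and XBP1 by -1.23 (edgeR adjusted p of 1.35e-06 to 0.00115), where 10.8% of all genes fell. The SESN2 call in LNCaP95 was lost with DESeq2 (adjusted p = 0.0551). Intron reads of ASNS went from a mean of 57.2 to 13.3 CPM in that line, and relative to its 3′ UTR they changed by -1.19 (SE 0.281, edgeR adjusted p = 0.00602), where the ratio fell for 8.95% of all genes. The intron ratio also fell for XBP1, by 0.93 (SE 0.296, edgeR adjusted p = 0.0371), a call lost with summed library sizes (0.0786), and rose for ATF3, by 1.25 (SE 0.287, edgeR adjusted p = 0.00487), where it rose for 5.19% of all genes. In LNCaP, ATF3 rose by 0.94 and XBP1 fell by 0.77, where 8.7% rose and 5.62% fell. In 22Rv1, ASNS (-1.16) and DDIT3 (-0.74) fell, where 1.75% did and 2.62% rose, 4.37% in all. These calls hung on single libraries, as ATF3 was lost without CTRL sh replicate 1 (edgeR adjusted p = 0.107) or 3 (0.0582) and ASNS without CTRL sh replicate 3 (-0.64, 0.468) or any of 3 knockdown libraries (0.0506 to 0.0612). XBP1 was lost without any CTRL sh or CPSF1 sh2 replicate (0.0577 to 0.2), and DDIT3 without CTRL sh replicate 1 or 3, CPSF1 sh1 replicate 1 or 3 or any CPSF1 sh2 replicate (0.054 to 0.22). In the CDS table DDIT3 (-1.43) and HSPA5 (-0.67) fell in LNCaP95, where 4.99% of all genes fell and 7.51% rose. By edgeR 0 members were called in LNCaP, where 3.31% of all genes fell and 3.8% rose, with 0 members at an unadjusted p under 0.05 and 0 by DESeq2. In 22Rv1, where 0.445% fell and 0.567% rose, 1.01% in all, 0 members were called by edgeR, 2 had an unadjusted p under 0.05, HSPA5 and XBP1, and DESeq2 called 1. XBP1 passed the filter there through the knockdown libraries alone (means of 0.396 CPM in controls and 3.68 after knockdown). The CDS and 3′ UTR regions of ASNS, XBP1 and ATF3 overlap over 32.4%, 28.5% and 9.89% of the 3′ UTR region.

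Other genes of the 2 responses were read from 9 lists, 92 genes without the heat shock list. In LNCaP95, 31 of 91 tested fell in the 3′ UTR table and 5 rose, where 15.2% of all genes fell and 15.2% rose, with a median log2 fold change of -0.20 beside 0.01 over all genes. In LNCaP, 12 of 88 fell and 4 rose, where 10.1% and 8.24% of all genes did, with a median of -0.04. In 22Rv1, 0 of 90 fell and 1 rose, where 0.791% and 0.678% did, with a median of -0.11. These shares are the background for each list below, and no test compared the lists with each other. ATF4 targets that are secreted or otherwise induced fell in LNCaP95 for 6 of 8, beside 15.2% of all genes, among them GDF15, a stress-induced cytokine (-2.39, SE 0.16), STC2, a secreted glycoprotein (-1.60, SE 0.142), and the angiogenic factor VEGFA (-1.37, SE 0.219), while 1 rose. GDF15 (-1.02) and VEGFA (-0.82) fell in LNCaP too, where 3 of 8 fell and XPOT, a tRNA exporter, rose (0.84).

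The genes of amino acid supply fell for 7 of 17 in LNCaP95 and rose for 0, where 15.2% of all genes fell and 15.2% rose. CTH, which makes cysteine, fell by 1.84, GPT2, an alanine transaminase, by 1.09 and the glutamine transporter SLC1A5 by 0.94. In LNCaP, 3 of 15 fell, beside 10.1% of all genes, PHGDH, at the entry to serine synthesis (-0.91), SLC1A5 (-0.87) and SHMT2 (-0.66). Aminoacyl-tRNA synthetases fell for 5 of 10 in LNCaP95, with GARS at -0.75, YARS at -0.63 and CARS at -0.63, and for 2 of 10 in LNCaP, AARS (-0.53) and MARS (-0.42).

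Partners of ATF4 and the eIF2 machinery held the most negative values among the called genes of the lists in LNCaP95. NUPR1, a stress-induced cofactor, fell by 2.74 in LNCaP95 (SE 0.194, edgeR adjusted p = 1.71e-08) and CEBPB by 0.72, while ATF5 rose by 0.48, among 6 partners of which 3 fell. PPP1R15A (GADD34), which brings the phosphatase to eIF2, fell by 2.86 (SE 0.31, edgeR adjusted p = 2.81e-06) among 13 genes of which 4 fell and 1, the kinase EIF2AK4 (GCN2), rose by 0.54. JDP2, a partner and repressor of the family, fell by 1.19 in LNCaP. Of 13 in that line, EIF2S1, the subunit that is phosphorylated, rose by 0.51 and the kinase EIF2AK1 fell by 0.55.

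The ER and heat shock lists are read against 15.2% of all genes that fell and 15.2% that rose in LNCaP95, and 10.1% and 8.24% in LNCaP. The list of ER sensors also holds the proteases MBTPS1 and MBTPS2, which are not sensors themselves. Of its genes 3 of 6 fell in LNCaP95, CREB3L2 by 1.17, ERN1 (IRE1) by 0.93 and MBTPS2 by 0.38, and 0 of 6 in LNCaP and 22Rv1. Of 17 ER chaperones and folding enzymes, 2 fell and 1 rose in LNCaP95, with the oxidase ERO1L at -1.75, HSP90B1 at -0.51 and HYOU1 at 0.47, and 2 fell and 1 rose in LNCaP, with ERO1LB at -1.60, ERO1L at -1.01 and DNAJC3 at 0.66. Genes of ER-associated degradation and translocation rose for 1 of 14 and fell for 1 in LNCaP95 (DERL1 0.61, SEC61G -0.50), rose for 1 in LNCaP (DERL1 0.52) and rose for 1 in 22Rv1 (DERL3 0.61). Cytosolic heat shock genes, which belong to another response, rose for 2 and fell for 3 of 10 in LNCaP95, with HSPH1 at 1.32, HSPA8 at 1.07 and DNAJB1 at -1.19, and rose for 3 and fell for 1 of 10 in LNCaP, with HSPH1 at 0.72. In the 10 kb table, 24 of 85 genes of the 92 rose and 6 fell in LNCaP95, 9 of 78 rose and 2 fell in LNCaP, and 12 of 86 rose and 3 fell in 22Rv1. Of all 10 kb regions, 17.6% rose and 10.1% fell in LNCaP95, 9.52% and 5.2% in LNCaP, and 7.26% and 2.73% in 22Rv1.

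**Figure D5:**
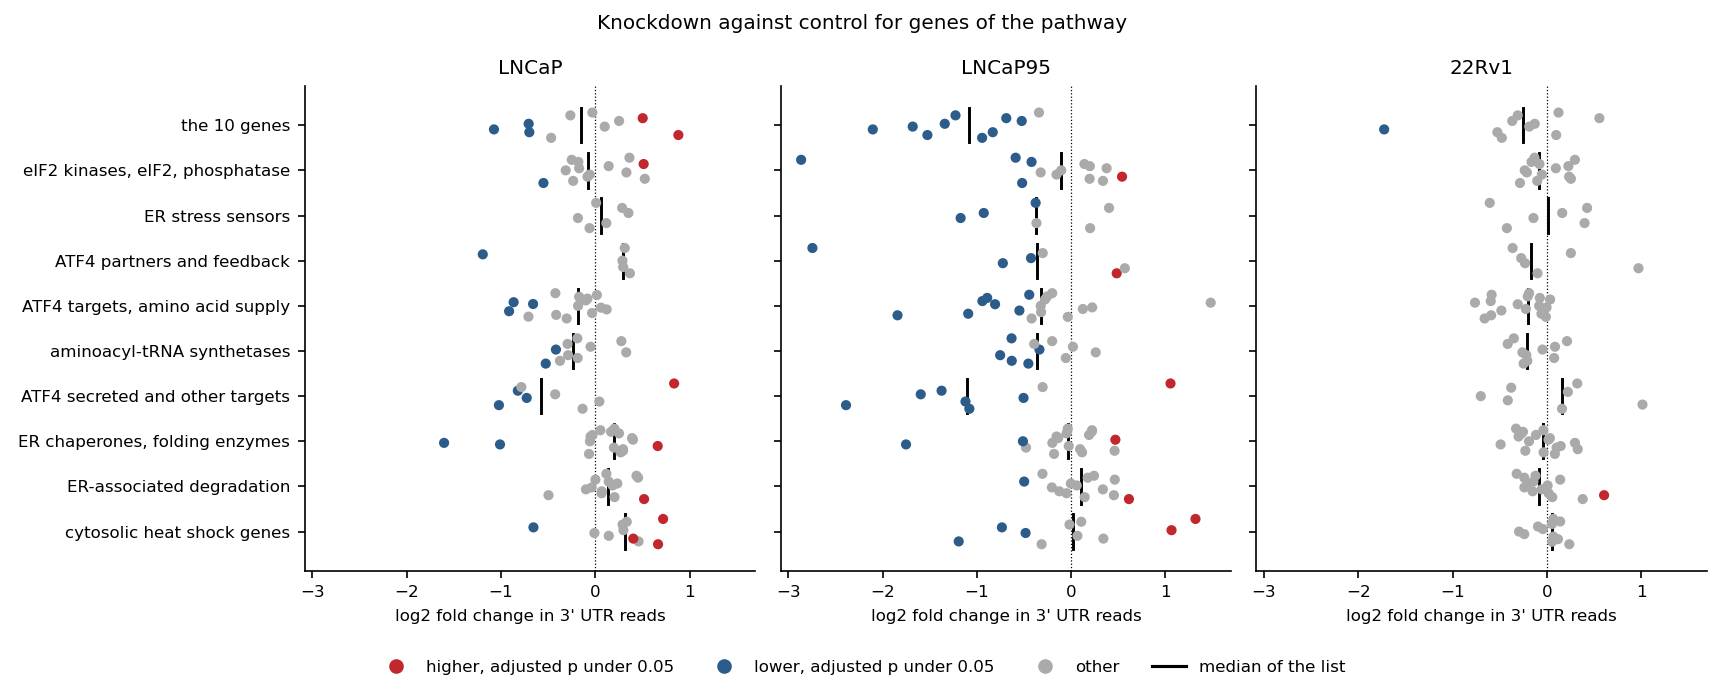
Log2 fold change of knockdown over control in 3′ UTR reads for each tested gene of the lists (1 point per gene, red for higher and blue for lower at an edgeR adjusted p under 0.05, black ticks for list medians). In LNCaP95 the 10 genes have a median of -1.09 and the ATF4 secreted targets one of -1.10, while the ER chaperone and degradation lists sit near 0, at -0.04 and 0.10.

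Likeness between genes was described over the 27 libraries of the 3′ UTR table, after subtracting each line's mean from log2 CPM. Groups of control and knockdown libraries shape these values, and no test was made. Within the 10 genes the highest Pearson r was 0.88 between TRIB3 and DDIT4, followed by 0.81 between DDIT3 and TRIB3 and 0.81 between ATF4 and ASNS. XBP1 and SESN2 had r near 0 with ATF4, at 0.03 each. Outside the 10, the genes most like DDIT3 were TP53INP2 (r = 0.94), ATL3 (0.93) and NDRG1 (0.93). Those most like TRIB3 were ALDOA (0.91) and C4orf3 (0.90), both also among the 3 most like DDIT4 (0.91 and 0.93), together with EGLN1 (0.91). ATF4 was most like NXPH4 (0.91), DHTKD1 (0.89) and SLC1A5 (0.88), and ASNS most like RPL12 (0.94), RPL3 (0.92) and PIEZO1 (0.91). The best match was lowest for SESN2, with GADD45A at 0.78, and next for HSPA5, with KLHL28 at 0.80.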

How the data were processed

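The authors of the study deposited read counts per gene for 27 PAC-seq libraries in 4 tables: 3′ UTR (19540 genes), intron (20216), CDS (20268) and 10 kb downstream (20266). They trimmed the poly(A) tails, aligned the reads to hg19 with HISAT2 and counted the most 3′ base of each read by strand with featureCounts, in regions of protein-coding genes of Ensembl GRCh37. The submitters' processing notes name HISAT2 2.1.0 and Subread 2.0.3. Priming within A-rich sequence could enter such counts. The DPAC pipeline, with which the tails were trimmed, drops poly(A) site calls beside A-rich genomic sequence, and the methods state this for site calls only, not for these region counts. The methods call the replicates biological.

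Each table was fitted with edgeR 4.0.16 in R 4.3.3 (TMM factors, quasi-likelihood test) over genes with a mean above 2 CPM across the libraries of the fit, and p-values were adjusted over all genes tested (Benjamini-Hochberg, threshold 0.05). Within each line 6 knockdown libraries were compared with 3 controls, then each shRNA alone, the shRNAs with each other, the control lines, the lines' knockdown effects, the ratio of each region to the 3′ UTR, and the sum of the 4 tables. The comparisons within a line share their controls. Alternatives were DESeq2 1.42.0, relative log expression factors, library sizes summed over the 4 tables, other filters on low counts, a replicate block and leaving out each library. Counting intervals are exact 95% Poisson ratio intervals and floors are 3 reads, both covering counting error only. CPM is on each table's own total, and levels are not compared between genes. The scripts were tested on simulated data. Replicate libraries differed beyond sampling noise, with chi-square per degree of freedom of 2.81 to 24.8.

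The 10 genes, the gene lists and the motifs were chosen with earlier results of these data known. The other genes named were, for each list, up to 3 called genes of the largest change, and, for likeness, the genes of highest Pearson r. HSPA5 and DDIT4 were singled out in the shRNA comparison as the members that differed there.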

Additional observations from a re-analysis of the deposited data

Results flagged for a closer look

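The effect of knockdown differed between lines by a direct test in 21 cases, as log2 differences with an edgeR adjusted p under 0.05. The share of all genes that differed is given above for the 3′ UTR only, so calls in the other regions stand without that background. In 3′ UTR reads, the effect in LNCaP95 was below that in LNCaP by values of -2.43 for ATF3, -1.78 for DDIT3, -1.18 for SESN2, -0.95 for TRIB3, -0.73 for HSPA5 and -0.64 for DDIT4. ATF3 and SESN2 rose in LNCaP and fell in LNCaP95. Against LNCaP95, the effect in 22Rv1 was higher by 1.66 for ATF3, 1.52 for DDIT3, 1.25 for DDIT4, 1.22 for SESN2 and 0.93 for TRIB3. HSPA5 was the only member with a difference between 22Rv1 and LNCaP, of -0.56, and in LNCaP this gene was high with CPSF1 sh1 alone.

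In introns, the effect in LNCaP95 minus that in LNCaP was -2.26 for ASNS, -1.88 for SESN2 and -1.16 for ATF3, and the effect in 22Rv1 minus that in LNCaP95 was 2.00 for SESN2 and 1.06 for XBP1. In CDS reads, LNCaP95 minus LNCaP was -1.51 for DDIT3 and -0.77 for HSPA5. In 10 kb reads, 22Rv1 minus LNCaP95 was 3.85 for CHAC1 and -6.31 for ATF4, where the controls of 1 of the lines held at most 1 read in all, so these values do not measure the size of the difference. LNCaP95 was kept in another medium than LNCaP and 22Rv1, so in the differences that involve it line and medium cannot be told apart. With library sizes summed over the tables or with a replicate block, 5 of the 21 missed the threshold, DDIT4 in the 3′ UTR, ATF3 in introns, DDIT3 and HSPA5 in CDS and CHAC1 in the 10 kb table, each under 1 of these alternatives.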

How the results depend on the processing

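Of the member calls, 8 of 9 in the 3′ UTR and 6 of 8 in the 10 kb table of LNCaP95 were kept in every alternative that tested them, against 2 of 5 and 2 of 4 in LNCaP and 0 of 1 and 0 of 2 in 22Rv1. A minimum of 2 CPM in every library left ATF3 and ATF4 in LNCaP95 and ATF4 in LNCaP untested in the 10 kb table. For the control lines in the 3′ UTR, 7 of 8 calls of LNCaP95 against LNCaP were kept. Depth limits the 10 kb table most, where several control groups held 0 to 3 reads of a member.

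With library sizes summed over the 4 tables, members lower in 22Rv1 3′ UTRs numbered 4 instead of 1, members higher in 22Rv1 10 kb regions 5 instead of 2, and members lower in LNCaP95 10 kb regions 0 instead of 1. In introns, 0 instead of 1 rose and 2 instead of 1 fell in LNCaP, and 0 instead of 2 fell in 22Rv1. Between control lines in introns, 1 instead of 2 was higher and 0 instead of 1 lower in 22Rv1 than in LNCaP, and in 10 kb regions 1 instead of 2 was lower in 22Rv1 than in LNCaP95. Effects lower in LNCaP95 than in LNCaP numbered 0 instead of 2 in CDS, and effects higher in 22Rv1 than in LNCaP95 numbered 0 instead of 1 in 10 kb regions (CHAC1), while the lower effect of ATF4 there kept its call. The intron ratio was lower for 1 instead of 0 members in LNCaP and 1 instead of 2 in LNCaP95, and the 10 kb ratio was higher for 7 instead of 2 in 22Rv1. These sizes put all tables on one scale, so the shares of all genes given above do not apply to these counts. The cause of single changes was not tested.

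With DESeq2, 2 members fell in 22Rv1 3′ UTRs, 0 in LNCaP introns, 1 in 22Rv1 CDS and 1 rose in 22Rv1 10 kb regions, while 0 were lower in introns of 22Rv1 than of LNCaP and 1 lower in 10 kb regions of 22Rv1 than of LNCaP95. With a minimum of 2 CPM in every library, 0 fell in 22Rv1 3′ UTRs, 0 fell in LNCaP introns, and 1 rose in 10 kb regions of both LNCaP and 22Rv1. With no filter, 1 rose in 22Rv1 10 kb regions and 1 was lower in 22Rv1 than in LNCaP95, and with relative log expression factors 1 rose in 22Rv1 10 kb regions. Stricter filters test fewer members, and otherwise the cause was not tested. The share of all genes called is not given for these settings, nor for the replicate block and left-out libraries below. Whether the member counts moved more than those of all genes therefore cannot be read from them.

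Samples were not treated as paired by replicate number. Deviations of same-numbered libraries correlated above 0.1 in 2 of 9 pairs in each line, and those of other pairs in 5 to 7 of 18. In 22Rv1 the same-numbered values ran from -0.14 to 0.36, highest for CTRL sh with CPSF1 sh1. These correlations do not exclude pairing. With the replicate block, members fell in 0 3′ UTRs and 1 intron region in 22Rv1 and in 0 introns in LNCaP, and 1 rose in 22Rv1 10 kb regions. Also under the block, 0 members were higher in LNCaP95 than in LNCaP and 1 lower in 22Rv1 than in LNCaP95 in 10 kb regions, and 1 CDS effect was higher in 22Rv1 than in LNCaP95 (0 without it). The DDIT4 difference in 3′ UTR effect between LNCaP95 and LNCaP missed the threshold (adjusted p = 0.0524).

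Values that turned sign all had an adjusted p above 0.6 as reported. With summed sizes, the 3′ UTR change was 0.014 for XBP1 in LNCaP and -0.0033 for ATF3 in 22Rv1, and the 10 kb change of CHAC1 in LNCaP was 0.30. The 10 kb change of XBP1 in LNCaP was -0.038 with relative log expression factors, -0.045 with the stricter filter and -0.036 with DESeq2. ASNS in 22Rv1 against LNCaP was 0.027, 0.016 and 0.027 with relative log expression factors, summed sizes and DESeq2. Leaving out 1 library gave ranges of -0.15 to 0.054 and -0.34 to 0.73 for XBP1 in LNCaP (3′ UTR and 10 kb), and of -0.10 to 0.24 for ATF3 and -0.30 to 0.094 for DDIT4 in 22Rv1. Between 22Rv1 and LNCaP controls it gave -0.18 to 0.15 for ASNS, -0.0073 to 0.33 for ATF3 and -0.052 to 0.20 for XBP1.

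Leaving out 1 library gave 0 to 2 members that rose in LNCaP 3′ UTRs, 0 to 3 that fell in 22Rv1 3′ UTRs and 0 to 2 that rose in 22Rv1 10 kb regions. In introns it gave 0 to 2 that rose and 0 to 1 that fell in LNCaP and 0 to 2 that fell in 22Rv1. For control lines it gave 1 to 3 higher and 0 to 1 lower in introns (22Rv1 against LNCaP), 0 to 2 higher in 10 kb regions (LNCaP95 against LNCaP) and 1 to 2 lower (22Rv1 against LNCaP95).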
